A study of Mus musculus with 12 samples.

Results

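The genes described here are the 4 genes of the Id family (Id1, Id2, Id3 and Id4) and 6 genes of bone morphogenetic protein (BMP) signaling: the ligands Bmp4, Bmp6 and Bmp7, the type I receptor Bmpr1b, and the inhibitory Smads Smad6 and Smad7. They were taken by gene name from the gene count matrix, where 10 of 19336 named loci matched, and all 10 passed the filter on low values. RNA was sequenced from hippocampal cultures of WT mice at postnatal day 4, kept for 8 days before treatment. The vehicle group received the solvents alone, the sErbB4 group 20 nM soluble ErbB4 for 4 h, the DAPT group 20 µM DAPT, and the DAPT+sErbB4 group DAPT and then sErbB4, with 3 libraries in each of the 4 groups. Vehicle was DMSO in place of DAPT and buffered saline in place of sErbB4. DAPT was given overnight by the description of the cultures, while another passage of the study gives a full day, and the files do not settle this. Soluble ErbB4 is the outer part of a receptor that binds Neuregulin 1 on the surface of neurons, and DAPT inhibits γ-secretase, the protease that cuts Neuregulin 1, Notch receptors and other proteins within the membrane. The replicates were 3 platings per group from 6 to 8 mice of 3 litters, and which platings shared animals is not given, so p-values measure the spread between platings.

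BMP ligands bind a complex of type I and type II receptors, which phosphorylates Smad1, Smad5 and Smad9. These join Smad4, enter the nucleus and switch on target genes, among them the Id genes and the feedback inhibitors Smad6 and Smad7. Id proteins are helix-loop-helix proteins without a DNA-binding region: they pair with E proteins and keep them from forming active dimers with tissue-specific basic helix-loop-helix (bHLH) factors. In the hippocampus BMP signaling and Id proteins are known for holding neural stem cells back from neuronal differentiation and for favouring astrocyte fate.

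RefSeq promoter windows were found for 7 of the 10 genes (Id2, Id3, Id4, Bmp4, Bmp6, Bmpr1b and Smad6), and those of Id4 and Bmp4 are shown, since both genes rose with DAPT and neither window overlaps an annotated exon. Each holds the 250 bases before the annotated start, read 5′ to 3′ on the strand of the gene in build GRCm38.p6, at chr13:48260866-48261115 (plus strand) for Id4 and chr14:46390670-46390919 (minus strand) for Bmp4. Capitals mark matches, on either strand, to the Smad element GGCGCC, to TGGGAA, the core of the site of the Notch partner RBPJ, and to the E-box CANNTG. The E-box is a general site of bHLH factors and is not particular to E proteins.
Id4: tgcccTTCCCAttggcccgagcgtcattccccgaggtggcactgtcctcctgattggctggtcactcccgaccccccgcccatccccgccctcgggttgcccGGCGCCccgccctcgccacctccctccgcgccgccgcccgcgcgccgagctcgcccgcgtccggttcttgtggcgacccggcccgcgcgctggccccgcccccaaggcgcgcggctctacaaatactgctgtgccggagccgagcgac
Bmp4: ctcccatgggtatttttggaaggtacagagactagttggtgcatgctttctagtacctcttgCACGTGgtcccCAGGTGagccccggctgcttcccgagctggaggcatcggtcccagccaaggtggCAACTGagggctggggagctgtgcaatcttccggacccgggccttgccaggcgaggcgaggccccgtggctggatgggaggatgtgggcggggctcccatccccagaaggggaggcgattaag
In Id4 the capitals are TGGGAA on the opposite strand at position -245 and GGCGCC at position -148, counted from the start site. The Bmp4 window holds 3 E-boxes, at positions -188, -177 and -123, and neither of the other motifs. Over 32851 RefSeq promoters the same windows held GGCGCC in 9.59%, TGGGAA in 21.6% and CANNTG in 66.2%. Of the other windows, that of Id2 held GGCGCC at position -231. The longer Smad palindrome GTCTAGAC (0.167% of promoters) and the full RBPJ site GTGGGAA (5.42%, which contains TGGGAA) were in none of the windows of these genes, and the short Smad motif GTCT is in 82.9% of all windows. A match is a string of letters and not a measured binding site.

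Library totals, in units of 1000000 estimated counts, were 36.5 to 54.4, of which loci without a gene name held 43.4 to 51.8%. On named loci 18.7 to 30.8 units remained, with 31.4 to 44.6% of them on the ribosomal RNA precursor Rn45s, and 16480 to 17220 genes were detected per library. The first principal component separated the 6 libraries with DAPT from the 6 without. On the second, sErbB4 replicate 1 stood apart (-18.3), with vehicle replicate 3 next on that side (-8.16). Levels are CPM, counts per 1000000 on library sizes scaled by TMM. Deposited values showed no rise with the length of the longest transcript (Spearman -0.0853 across 12537 genes). This does not settle whether they are per length, and the sources do not state it. Orders, shares and sizes of ratios between different genes rest on the assumption that they can be set side by side. That the values are estimated counts, as the test takes them, is also assumed. Called genes are those with an adjusted p under 0.05 by edgeR's quasi-likelihood test (Benjamini-Hochberg adjustment over all 15656 genes tested) and a log2 fold change of more than 0.322 in either direction, the fold limit of the study. All adjusted p-values are from this fit unless another tool is named.

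The question of the DAPT comparisons is what γ-secretase activity does to transcription in these cultures. On average over cultures without and with sErbB4, DAPT raised 4 of the 10 genes, Id4, Bmp6, Bmp4 and Id1, and lowered none by the same rule. The background was 5.54% of all genes called higher and 7.70% called lower. A further 3 genes passed the adjusted p but not the fold limit: Id2 and Id3 were higher and Bmp7 was lower. Bmpr1b, Smad6 and Smad7 passed neither. The median log2 fold change of the 10 genes was 0.20, beside 0.0097 over all genes tested. These genes were chosen with earlier results of the same data known, so the shares and medians are descriptive.

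Id4 changed most. This gene (mm10, chromosome 13, 48261228 to 48266026, plus strand) stood at 46.4, 47.1 and 42.5 CPM in the 3 vehicle libraries and at 42.5, 44.3 and 35.8 CPM with sErbB4. With DAPT it stood at 73.5, 70.8 and 73.5 CPM, and with DAPT+sErbB4 at 67.2, 67.5 and 70.1 CPM. The 6 libraries with DAPT all lay above the 6 without, with a gap between 47.1 and 67.2 CPM. The average log2 fold change was 0.71 (SE 0.05, adjusted p = 6.09e-07), a rise of 1.64-fold. It was 0.68 for DAPT against vehicle (SE 0.07, adjusted p = 3.55e-05) and 0.74 for DAPT+sErbB4 against sErbB4 (SE 0.07, adjusted p = 1.61e-05), and it stayed called under every alternative run. In the annotation, 82 exonic bases of Id4 lie opposite the antisense gene A330033J07Rik. That gene measured 0.326 to 0.658 CPM without DAPT and 0.859 to 1.41 CPM with it, an average log2 fold change of 1.22 (SE 0.23). Also opposite Id4, over 171 exonic bases, lies the noncoding gene Gm49291, which is not in the count matrix. Whether counting used strand is not given in the sources used here, so reads of Id4 and of these genes in the shared stretches cannot be told apart.

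**Figure D1:**
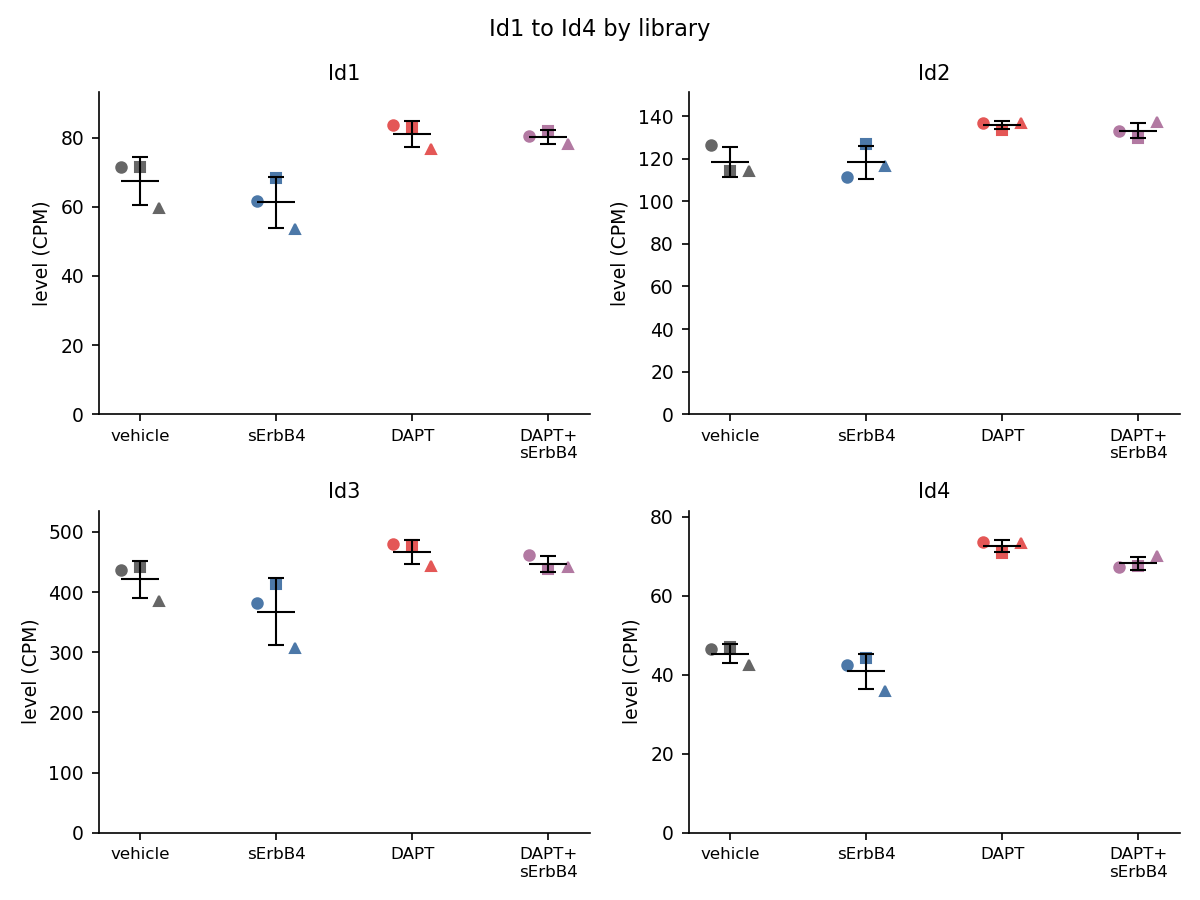
Level of Id1, Id2, Id3 and Id4 (vertical axes, CPM from 0) in each library of the 4 groups (horizontal axis), with circles, squares and triangles for replicates 1, 2 and 3 and black bars for the mean ± SD of 3 libraries. Id4 is at 35.8 to 47.1 CPM without DAPT and at 67.2 to 73.5 CPM with it, while the ranges of Id3 overlap.

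Id1 (chromosome 2, 152736251 to 152737410, plus strand) rose less. It measured 71.5, 71.5 and 59.5 CPM in vehicle and 61.8, 68.4 and 53.6 CPM with sErbB4. It measured 83.5, 82.7 and 76.6 CPM with DAPT and 80.5, 81.9 and 78.1 CPM with DAPT+sErbB4. All 6 libraries with DAPT again lay above all 6 without, by a small margin. The average log2 fold change was 0.324 (SE 0.06, adjusted p = 0.0016), or 1.252-fold, just over the limit of 0.322. The call rested on single libraries: the fold fell under the limit without vehicle replicate 3 (0.282), sErbB4 replicate 3 (0.281), DAPT replicate 1 (0.316), DAPT replicate 2 (0.316) or DAPT+sErbB4 replicate 2 (0.316), with adjusted p of Id1 between 0.00244 and 0.00515. Between DAPT+sErbB4 and sErbB4 the log2 fold change of Id1 was 0.39 (SE 0.09, adjusted p = 0.00761, called), and without sErbB4 replicate 3 it was 0.30 and under the fold limit. Between DAPT and vehicle it was 0.26 (SE 0.09) and missed the threshold at an adjusted p of 0.052.

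Id2 (chromosome 12, 25093799 to 25097140, minus strand) had narrow groups and a small difference. Its levels were 126.5, 114.4 and 114.4 CPM in vehicle, 111.4, 126.8 and 116.7 CPM with sErbB4, 136.8, 133.6 and 136.8 CPM with DAPT, and 132.8, 129.7 and 137.0 CPM with DAPT+sErbB4. The libraries with DAPT were all above those without, yet the average log2 fold change was 0.18 (SE 0.04, adjusted p = 0.00253), a 1.14-fold difference. Id2 was therefore higher by the adjusted p alone.

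Id3 (chromosome 4, 136143497 to 136145755, plus strand) was the most abundant of the 10 genes, with 99.1% of tested genes at a lower mean. It measured 436.3, 441.5 and 385.3 CPM in vehicle, 381.8, 414.2 and 306.6 CPM with sErbB4, 479.1, 477.6 and 443.3 CPM with DAPT, and 462.5, 437.9 and 441.3 CPM with DAPT+sErbB4. The groups overlapped by a single vehicle library, replicate 2. The average log2 fold change was 0.22 (SE 0.06, adjusted p = 0.0211), 1.16-fold, and without vehicle replicate 3 the adjusted p of Id3 was 0.0508. Id3 passed the adjusted p between DAPT+sErbB4 and sErbB4 (log2 fold change 0.28, SE 0.09, adjusted p = 0.0425) and missed it between DAPT and vehicle (0.15, SE 0.09, adjusted p = 0.287). Without sErbB4 replicate 2 the former was 0.38 and past the fold limit.

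The library sErbB4 replicate 3 was the lowest of all 12 for Id1, Id3, Id4, Bmp4 and Bmp6. Its summed level of 8 neuron markers was 1394 CPM, the highest of the 6 libraries without DAPT, and its summed level of 8 astrocyte markers, 5844 CPM, the second lowest of all 12. Its summed level of 5 mature oligodendrocyte markers, 212.2 CPM, was the lowest of all 12, the others spanning 251.5 to 313.3 CPM. After removal of group means, r with that sum over the 12 libraries was 0.90 for Id4, 0.88 for Id3, 0.87 for Id1, 0.87 for Bmp6 and 0.74 for Bmp4. It was 0.58 for Id2, 0.48 for Bmpr1b, 0.37 for Smad7, 0.13 for Bmp7 and -0.48 for Smad6. With other marker sums, r of Id4 was 0.79 (oligodendrocyte precursors), 0.53 (radial glia and neural stem cells), 0.43 (astrocytes) and -0.71 (neurons). For Id1, Id3 and Bmp6 it was 0.71, 0.76 and 0.77 with oligodendrocyte precursors. Id2 was closer to radial glia and neural stem cells (0.90) and to astrocytes (0.78) than to mature oligodendrocytes. Bmp4 was at 0.76 with oligodendrocyte precursors and -0.77 with neurons, and Smad6 at 0.71 with neurons. All points share the depth and scaling of their libraries. The library sErbB4 replicate 3, lowest for the mature oligodendrocyte sum and for Id1, Id3, Id4, Bmp4 and Bmp6, is among them. The part of mature oligodendrocytes or other cells in the levels was not tested. Without this library the average log2 fold changes were 0.67 for Id4, 0.37 for Bmp4 and 0.43 for Bmp6, all still called.

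Among the ligands, Bmp4 and Bmp6 rose and Bmp7 did not. Bmp4 (chromosome 14, 46383520 to 46390669, minus strand), a ligand of neural patterning and stem cell quiescence, stood at 12.6, 12.5 and 10.6 CPM in vehicle and at 12.6, 10.5 and 8.13 CPM with sErbB4. It stood at 15.4, 16.5 and 15.4 CPM with DAPT and at 14.9, 14.8 and 14.1 CPM with DAPT+sErbB4. All libraries with DAPT were above all without. The average log2 fold change was 0.44 (SE 0.08, adjusted p = 0.00147), 1.36-fold. It was called in both DAPT comparisons, at 0.40 against vehicle (SE 0.12, adjusted p = 0.0315) and 0.49 with sErbB4 present (SE 0.12, adjusted p = 0.0108). The call of Bmp4 against vehicle was lost when any of the 6 libraries compared was left out, with log2 fold changes of 0.32 without vehicle replicate 3 to 0.45 without vehicle replicate 1 and adjusted p of 0.0541 to 0.112. With sErbB4 present the call of Bmp4 was lost when libraries were scaled by their totals (0.42, adjusted p = 0.0926). In the annotation, 89 exonic bases of Bmp4 lie opposite Gm15217. That gene is not in the count matrix, so its reads could not be checked.

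Bmp6 (chromosome 13, 38345107 to 38500302, plus strand), a ligand best known for iron control in the liver, measured 17.0, 16.8 and 15.1 CPM in vehicle and 14.6, 15.5 and 12.5 CPM with sErbB4. It measured 21.6, 23.7 and 21.0 CPM with DAPT and 19.8, 20.4 and 20.8 CPM with DAPT+sErbB4. The groups did not overlap. The average log2 fold change was 0.47 (SE 0.06, adjusted p = 4.16e-05), 1.39-fold, and Bmp6 stayed called in both DAPT comparisons under every alternative run. Its exons share 224 bases with those of Txndc5 on the opposite strand, which measured 117.6 to 131.9 CPM without DAPT and 109.1 to 121.8 CPM with it, so Txndc5 was higher in level, and its average log2 fold change was -0.12 (SE 0.03, adjusted p = 0.0174).

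Bmp7 (chromosome 2, 172868012 to 172940321, minus strand), a ligand of the same receptors, measured 8.60, 7.45 and 8.27 CPM in vehicle, 8.12, 9.03 and 8.84 CPM with sErbB4, 7.36, 7.95 and 7.22 CPM with DAPT, and 7.22, 6.56 and 7.20 CPM with DAPT+sErbB4. The groups overlapped, through vehicle replicate 2 and DAPT replicate 2. The average log2 fold change was -0.22 (SE 0.05, adjusted p = 0.00644) and within the fold limit. Between DAPT+sErbB4 and sErbB4 it was -0.31 (SE 0.07, adjusted p = 0.0088), short of the fold limit. Without sErbB4 replicate 1, DAPT+sErbB4 replicate 1 or DAPT+sErbB4 replicate 3 the value of Bmp7 was -0.35, -0.33 and -0.34, past it. Between DAPT and vehicle it was -0.12 (SE 0.07, adjusted p = 0.287).

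**Figure D2:**
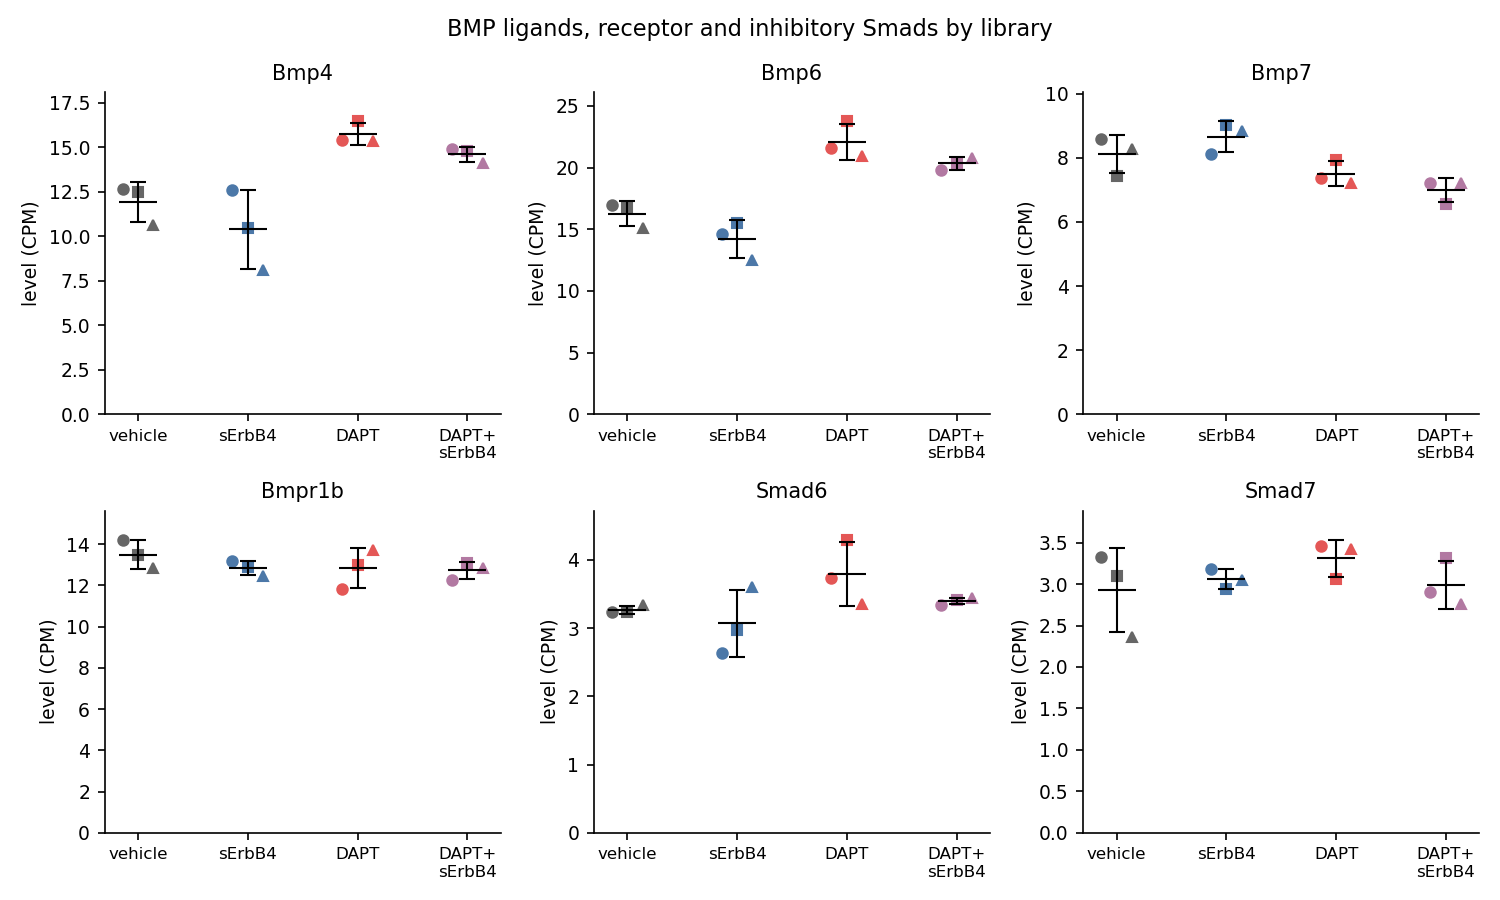
Level of the ligands Bmp4, Bmp6 and Bmp7, the receptor Bmpr1b and the inhibitory Smads Smad6 and Smad7 (vertical axes, CPM from 0) in each library of the 4 groups, with circles, squares and triangles for replicates 1, 2 and 3 and black bars for the mean ± SD of 3 libraries. Bmp4 and Bmp6 are higher in every library with DAPT (from 14.1 and 19.8 CPM) than in any without (up to 12.6 and 17.0 CPM), and the other 4 genes overlap.

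The receptor and the feedback inhibitors were not called. Bmpr1b (chromosome 3, 141837136 to 142169425, minus strand), a type I receptor for BMP ligands, measured 12.8 to 14.2 CPM in vehicle, 12.5 to 13.2 with sErbB4, 11.8 to 13.7 with DAPT and 12.3 to 13.1 with DAPT+sErbB4. Its average log2 fold change was -0.04, with a 95% interval of -0.14 to 0.05, and its sign turned, to 0.026, when libraries were scaled by their totals. Smad6 (chromosome 9, 63953076 to 64022059, minus strand), which blocks receptor-activated Smads of the BMP branch, measured 3.23, 3.24 and 3.34 CPM in vehicle, 2.64, 2.97 and 3.60 with sErbB4, 3.73, 4.29 and 3.36 with DAPT, and 3.34, 3.41 and 3.44 with DAPT+sErbB4. Its average log2 fold change was 0.18 (95% interval -0.02 to 0.37, adjusted p = 0.141). Smad7 (chromosome 18, 75367529 to 75395935, plus strand), which also restrains transforming growth factor β (TGF-β) receptors, measured 2.36 to 3.46 CPM over the 12 libraries with an average log2 fold change of 0.07 (95% interval -0.13 to 0.28, adjusted p = 0.59). The intervals of Smad6 and Smad7 reach the values of Id3 and Id2, so a change of that size in these low genes is not excluded.

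Of the 10 genes, 5 (Id1, Id2, Id4, Bmp4 and Bmp6) had all 6 libraries with DAPT above all 6 without, and none had them all below. Over all genes tested these shares were 8.58% and 11.8%. By comparison, DAPT against vehicle called 3 of the 10 higher (Id4, Bmp4 and Bmp6) and none lower, with 4.66% of all genes called higher and 6.92% lower. DAPT+sErbB4 against sErbB4 called 4 higher (Id1, Id4, Bmp4 and Bmp6) and none lower, with 4.55% and 7.15% in the background. These comparisons share no libraries with each other.

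Scaling by library totals in place of TMM moved the median log2 fold change of all genes to 0.21 for DAPT against vehicle, 0.13 for sErbB4 against vehicle and -0.13 for DAPT+sErbB4 against DAPT. For DAPT against vehicle the calls over all genes then went from 730 higher and 1083 lower to 2734 higher and 476 lower, and 7 of the 10 genes were called, with log2 fold changes of 0.46 for Id1, 0.40 for Id2, 0.34 for Id3 and 0.40 for Smad6. For DAPT+sErbB4 against sErbB4 the split went from 712 higher and 1120 lower to 309 and 1236, and for the average from 867 higher and 1205 lower to 1336 and 872. With sErbB4 present 3 of the 10 were called on library totals in place of 4. The calls of Bmp4 (0.42, adjusted p = 0.0926) and Id1 (0.32, adjusted p = 0.1) were lost, and Bmp7 was called lower (-0.37, adjusted p = 0.0155). Id4 and Bmp6 were called in both DAPT comparisons on either scale.

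**Figure D3:**
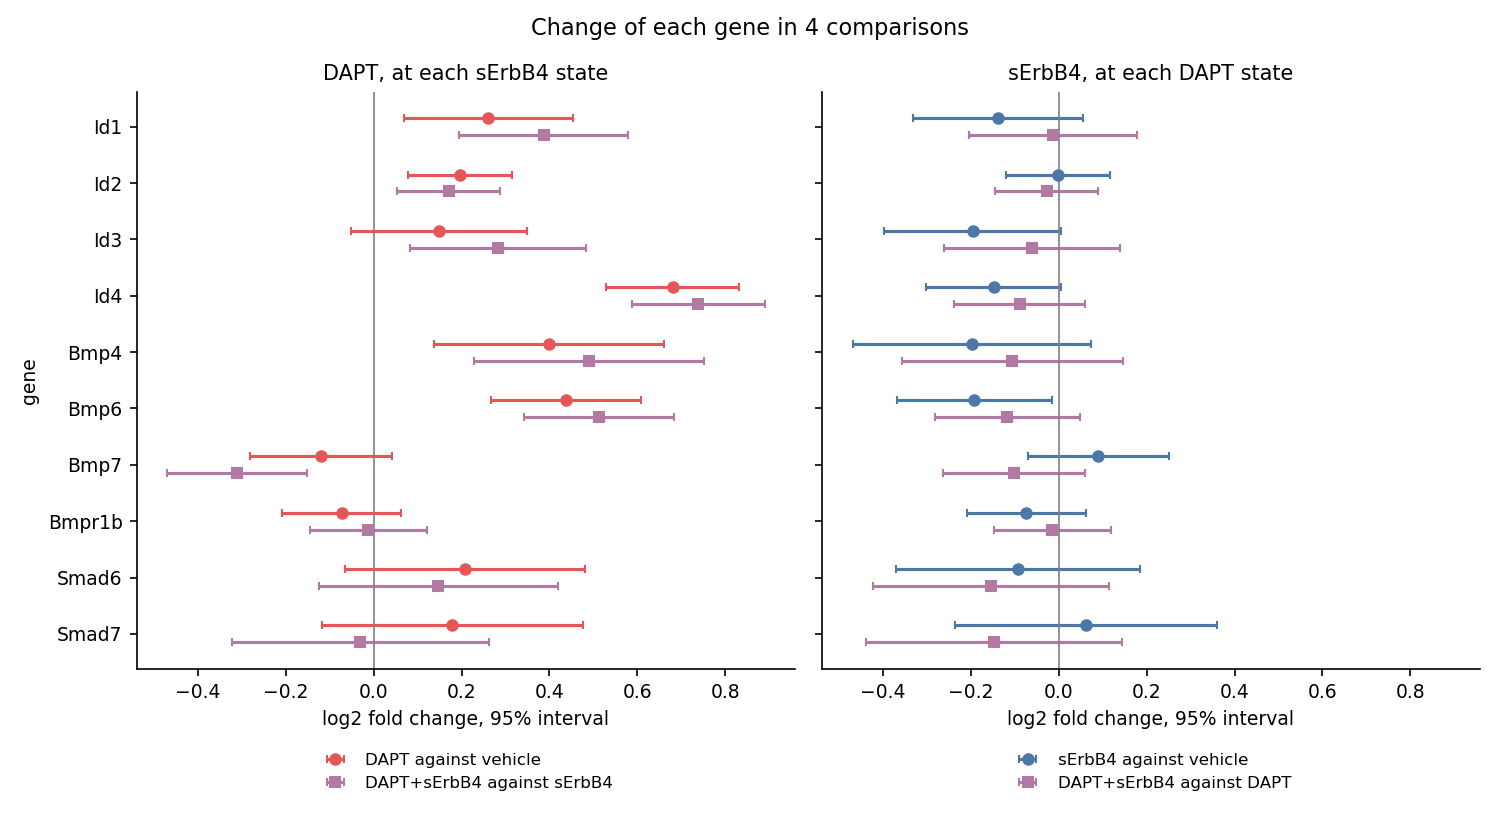
Log2 fold change (horizontal axes) of each of the 10 genes (vertical axis) with its 95% interval, for DAPT at each sErbB4 state on the left and for sErbB4 at each DAPT state on the right. The points of the left panel span -0.31 (Bmp7) to 0.74 (Id4), and those of the right panel stay between -0.20 and 0.09. The intervals reach from -0.47 (Bmp7) to 0.89 (Id4) on the left and from -0.47 (Bmp4) to 0.36 (Smad7) on the right.

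Ratios of 2 genes within a library do not depend on scaling and show whether members of a family moved by unequal amounts. They were tested with an exact two-sided permutation test of the log2 ratio, DAPT labels being exchanged within each sErbB4 state (400 arrangements, smallest possible p 0.005), over 9 pairs chosen after the levels were seen. The p-values of the ratios are therefore descriptive: they restate differences already seen in the levels and add no separate support. The ratio of Id3 to Id4 was 8.56 to 9.40 in the 6 libraries without DAPT and 6.03 to 6.89 in the 6 with it (exact p = 0.005, adjusted 0.009). Id2 to Id4 was 2.43 to 3.26 without DAPT and 1.86 to 1.98 with it, and Id1 to Id4 was 1.40 to 1.55 and 1.04 to 1.21 (both exact p = 0.005, adjusted 0.009). Each of the other Id genes was thus lower against Id4 in all 6 libraries with DAPT than in any without. As a share of the summed level of the 4 Id genes, Id4 held 6.77 to 7.11% without DAPT and 9.04 to 10.1% with it, and Id3 59.8 to 65.5% and 60.7 to 62.5%. Among the other Id pairs, Id1 to Id3 was 0.155 to 0.175 without and 0.173 to 0.187 with DAPT (exact p = 0.01, adjusted 0.015), and those of Id1 to Id2 (adjusted 0.0707) and Id2 to Id3 (adjusted 0.765) missed the threshold.

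Among the ligands, Bmp4 and Bmp6 separated from Bmp7 and not from each other. Bmp6 to Bmp7 was 1.41 to 2.25 without DAPT and 2.74 to 3.11 with it, and Bmp4 to Bmp7 was 0.919 to 1.68 and 1.96 to 2.25 (both exact p = 0.005, adjusted 0.009). Bmp4 to Bmp6 was 0.652 to 0.859 and 0.678 to 0.753, and the mean log2 ratio differed by -0.02 (exact p = 0.765), so no unequal change of Bmp4 and Bmp6 was detected.

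**Figure D4:**
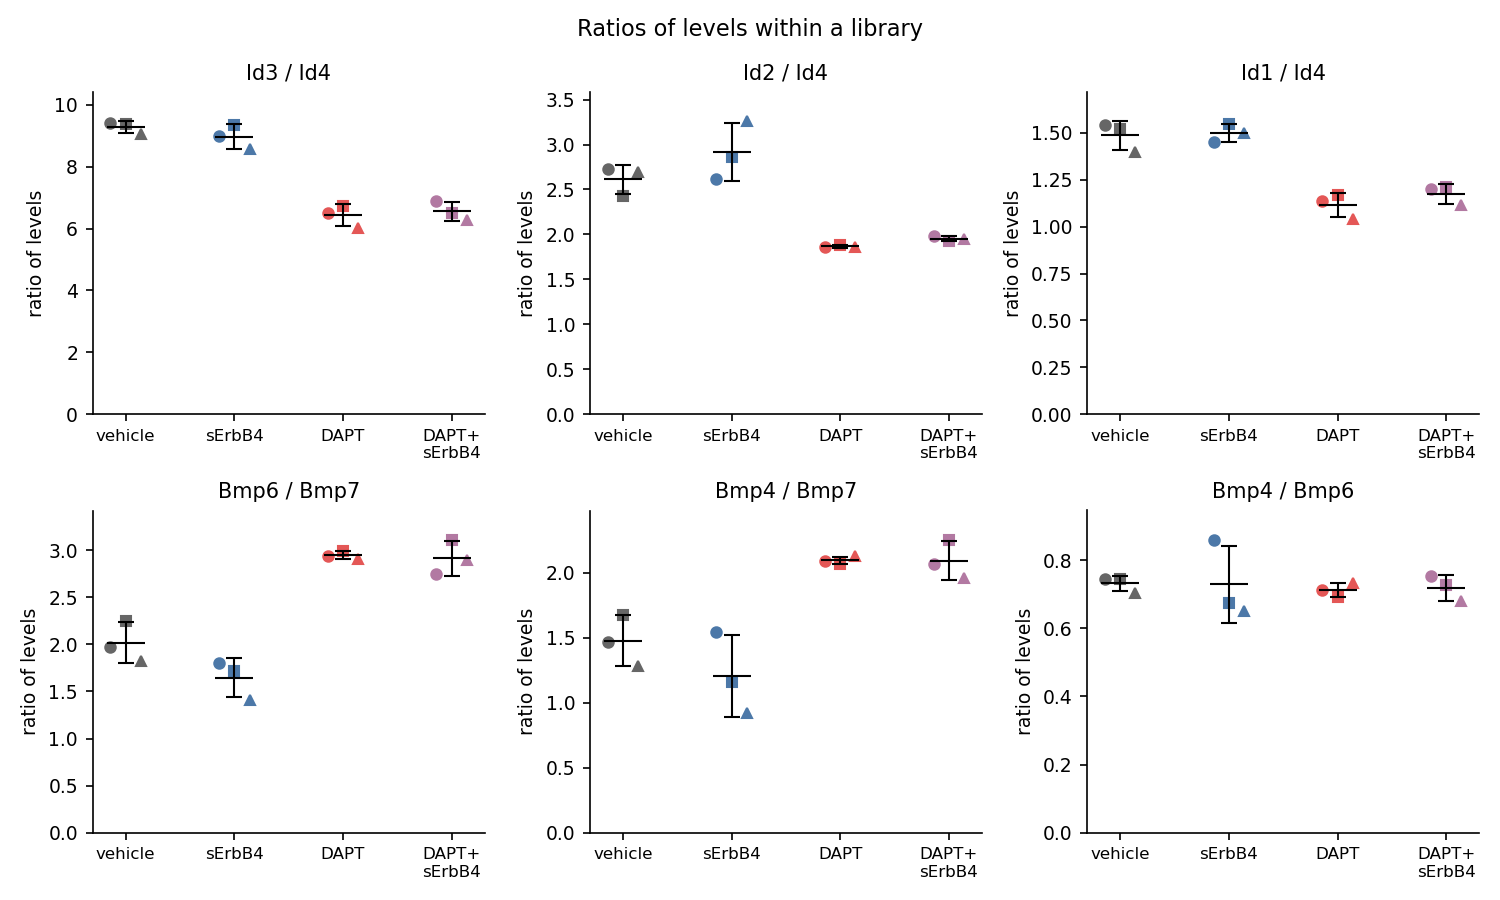
Ratio of the levels of 2 genes (vertical axes, from 0) in each library of the 4 groups, with circles, squares and triangles for replicates 1, 2 and 3 and black bars for the mean ± SD of 3 libraries. The ratios to Id4 are lower with DAPT (Id3 to Id4 at 6.03 to 6.89 against 8.56 to 9.40), those to Bmp7 are higher (Bmp6 to Bmp7 at 2.74 to 3.11 against 1.41 to 2.25), and Bmp4 to Bmp6 overlaps.

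The sErbB4 comparisons ask what stimulation of Neuregulin 1 did within 4 h. In sErbB4 against vehicle none of the 10 genes was called by edgeR, DESeq2 or limma, with 0.0319% of all genes called by edgeR in either direction and 1 of the 10 (Bmp6) at an unadjusted p under 0.05. Log2 fold changes ran from -0.20 (Bmp4) to 0.09 (Bmp7), and 8 of 10 were below 0, with a median of -0.12 beside -0.0020 over all genes. That of Bmp6 was -0.19 (95% interval -0.37 to -0.01, adjusted p = 0.63) and that of Id2 was -0.0018 (95% interval -0.12 to 0.12).

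In DAPT+sErbB4 against DAPT none was called either, by edgeR, DESeq2 or limma, none had an unadjusted p under 0.05, and 0% of all genes were called by edgeR, of which 1442 were at an unadjusted p under 0.05 (8 genes were called by DESeq2 and 1 by limma). The log2 fold changes of the 10 genes lay between -0.15 (Smad6) and -0.01 (Id1), with a median of -0.10 beside 0.0020 over all genes. The widest intervals were those of Smad7, -0.24 to 0.36 in the former comparison and -0.44 to 0.14 in the latter. The difference between the DAPT effects with and without sErbB4 was tested as an interaction: none of the 10 was called by edgeR, DESeq2 or limma and none had an unadjusted p under 0.05, with 0.00639% of all genes called. The largest interaction value above 0 was 0.13 (Id3, 95% interval -0.15 to 0.42) and the lowest was -0.21 (Smad7, 95% interval -0.63 to 0.21).

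In sErbB4 against DAPT, the comparison in which both agents differ, 5 of the 10 were called lower with sErbB4 (Id1, Id3, Id4, Bmp4 and Bmp6) and none higher. The background was 4.05% of all genes lower and 6.04% higher. The log2 fold changes were -0.83 for Id4 (SE 0.07, adjusted p = 8.62e-06), -0.63 for Bmp6, -0.60 for Bmp4, -0.40 for Id1 and -0.34 for Id3 (SE 0.09, adjusted p = 0.02). The call of Id3 was lost on library totals, with only the 6 libraries compared, and without sErbB4 replicate 3, DAPT replicate 1 or DAPT replicate 2, and that of Id1 without sErbB4 replicate 3, where Smad6 was called instead. This comparison shares its sErbB4 libraries with DAPT+sErbB4 against sErbB4 and its DAPT libraries with DAPT against vehicle, so it adds no independent samples.

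By mean level over the 12 libraries the order was Id3 (425.6 CPM), Id2 (126.4), Id1 (72.5), Id4 (56.8), Bmp6 (18.2), Bmp4 (13.2), Bmpr1b (12.98), Bmp7 (7.82), Smad6 (3.38) and Smad7 (3.07). Most neighbours kept this order in every library. The exceptions were Bmp4 and Bmpr1b, where Bmp4 was the lower in all 6 libraries without DAPT (ratio 0.652 to 0.955) and the higher in all 6 with it (1.10 to 1.30), and Smad6 and Smad7, where Smad6 was the higher in 9 of 12 libraries.

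After removal of group means, the levels of several of these genes still moved together between libraries of a group. Over 12 libraries, r of the deviations on the log2(CPM + 2) scale was 0.94 for Id1 and Id3, 0.89 for Id3 and Id4, 0.88 for Id3 and Bmp6, 0.87 for Id1 and Bmp6 and 0.83 for Id1 and Id4. Not all pairs did so. Smad6 ran the other way, with r of -0.69 with Id4, -0.62 with Bmp4 and -0.45 with Id3. Id2 was at 0.35 with Id3 and -0.09 with Bmp4. All the points share the depth and scaling of their libraries. Over the same 12 libraries with group differences left in, the genes with the pattern most like that of Id4, among 10878 genes at a mean of at least 5 CPM, were Acsl3 (r = 0.99), which activates long-chain fatty acids, Tmem47 (r = 0.99) and Prodh (r = 0.99), the mitochondrial proline dehydrogenase. Those most like Id1 were Gas6 (r = 0.96), a ligand of TAM receptors, Cilk1 (r = 0.96), a kinase of primary cilia, and Hspb8 (r = 0.95), a small heat shock protein. For Id2 they were Rab5b (r = 0.97), Iqcg (r = 0.96) and Nat8f1 (r = 0.95), and for Id3 Fam107a (r = 0.96), Syt12 (r = 0.96) and Cilk1 (r = 0.95).

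The other genes of the pathway were taken from a list of 52 genes, of which 50 are in the table (Gdf2 and Chrdl2 were not analysed here) and 42 were tested. On average DAPT raised 7 of the 42 and lowered 1, where 5.54% of all genes were called higher and 7.70% lower, and the median log2 fold change of the 42 was 0.04. Among 10 receptors and coreceptors only Bambi, a decoy receptor without a kinase and a known BMP target, was called, at 1.43 to 2.30 CPM without and 3.22 to 3.82 CPM with DAPT (log2 fold change 0.84, SE 0.11, adjusted p = 9.19e-05). Among 5 further target genes, Atoh8, a bHLH factor, rose by 0.74 (SE 0.09, adjusted p = 4.89e-05) and Msx1, a homeobox factor, by 0.43 (SE 0.07, adjusted p = 0.000364). Msx2, Dlx5 and Runx2 were not called.

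Among 15 tested secreted antagonists and modulators, 3 were higher and 1 lower. Nbl1, a BMP antagonist, was at 71.6 to 92.4 CPM without DAPT and at 129.7 to 143.4 CPM with it (log2 fold change 0.70, SE 0.04, adjusted p = 2.99e-07). Nog, the antagonist Noggin, rose by 0.46 (SE 0.10, adjusted p = 0.00365) and Tll1, a protease that cuts the antagonist Chordin, by 0.36 (SE 0.10, adjusted p = 0.0147). Chrdl1, a Chordin-like antagonist, was at 4.04 to 5.21 CPM without and 2.66 to 3.04 CPM with DAPT (log2 fold change -0.64, SE 0.08, adjusted p = 5.49e-05). Among 4 other ligands tested, Bmp3 was called (0.36, SE 0.10, adjusted p = 0.0153), and Bmp2 stayed near 1 CPM (0.627 to 1.22 without and 0.762 to 1.23 with DAPT). None of the 4 receptor-activated and common Smads and none of the 4 intracellular regulators was called. The calls of Bmp3 and Tll1 were lost without vehicle replicate 1 (0.31 and 0.30), that of Bmp3 also without sErbB4 replicate 3 (0.27) and that of Tll1 without DAPT replicate 3 (0.31). In DAPT against vehicle the counts over the 42 genes were 5 higher and 2 lower, and in DAPT+sErbB4 against sErbB4 they were 5 higher and 1 lower, beside 4.66% higher and 6.92% lower of all genes in the former comparison and 4.55% and 7.15% in the latter.

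**Figure D5:**
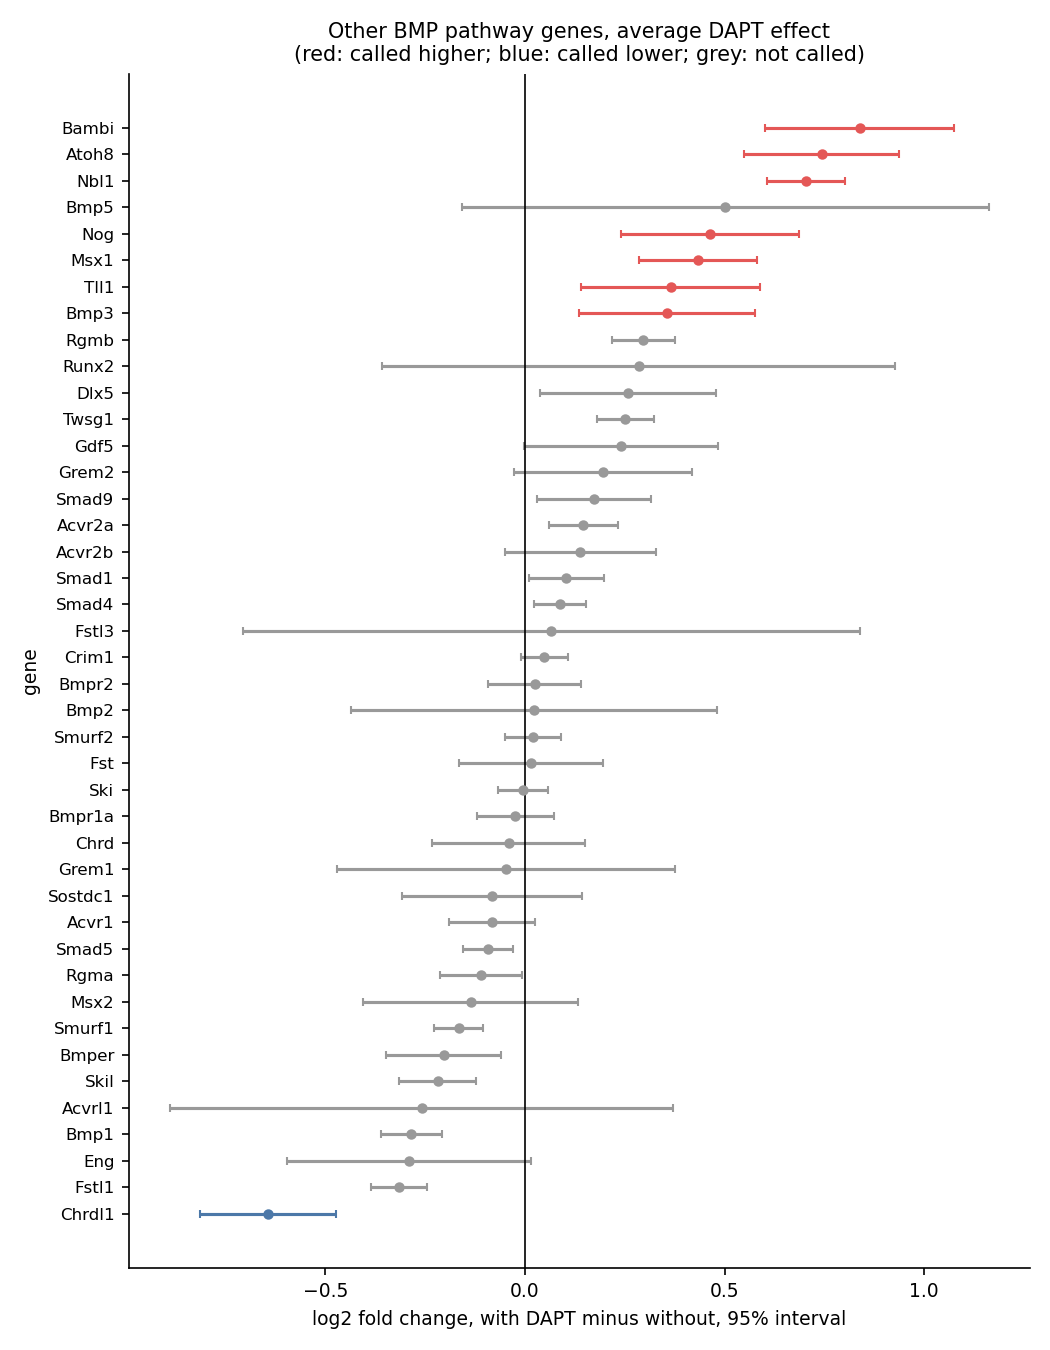
Average DAPT effect (horizontal axis, log2 fold change with DAPT minus without, with 95% interval) of the 42 tested BMP pathway genes besides the 10 members (vertical axis). Called genes are 7 higher (red, Bambi highest at 0.84) and 1 lower (blue, Chrdl1 at -0.64), and 34 were not called (grey).

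The partners of Id proteins were read from a list of 3 E proteins. A separate list held 13 bHLH factors. It mixes tissue-specific factors with the Hes and Hey genes Hes1, Hes5, Hes6, Hey1, Hey2 and Heyl. None of the E proteins (Tcf3, Tcf4 and Tcf12) was called, with a median log2 fold change of -0.08. Tcf3 passed the adjusted p but not the fold limit (-0.27, SE 0.03, adjusted p = 4.15e-05), and all 6 libraries with DAPT were below all 6 without. Of the bHLH factors 1 was higher and 5 were lower on average, 1 and 5 for DAPT against vehicle, and none and 7 for DAPT+sErbB4 against sErbB4. Of all genes 5.54% were called higher and 7.70% lower on average, 4.66% and 6.92% against vehicle, and 4.55% and 7.15% with sErbB4 present. The Notch target Hes1 was at 5.46 to 7.39 CPM without and 1.37 to 1.97 CPM with DAPT (log2 fold change -1.92, SE 0.09, adjusted p = 3.97e-08) and Hes5, another Notch target, changed by -1.90 (SE 0.21). Heyl was at 0.34 to 0.726 CPM without DAPT and at 0 to 0.127 CPM with it. The oligodendrocyte lineage factors Olig1 and Olig2 changed by -1.34 and -1.06 (SE 0.04 and 0.02), and Neurod6, a factor of pyramidal neurons, by 0.38 (SE 0.06, adjusted p = 0.000384).

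The labels call the samples neuronal cultures, and the marker levels show glia beside neurons. Tubb3 (320.7 to 411.7 CPM) and Map2 (126.8 to 154.7 CPM) marked neurons, and Gfap, the astrocyte filament, was at 3719 to 5137 CPM. The 8 astrocyte markers summed to 6092 to 6860 CPM in vehicle, 5769 to 6061 with sErbB4, 6828 to 7253 with DAPT and 6453 to 6713 with DAPT+sErbB4. On average 1 of them was called higher (Gja1, log2 fold change 0.61, SE 0.04) and 2 lower (Aldh1l1 at -0.61 and Slc1a3 at -0.43), with a median of 0.01 beside 0.71 for Id4. The background for this and the following marker counts was 5.54% of all genes called higher and 7.70% called lower. In bulk samples a change in the number of cells of a type and a change in RNA per cell cannot be told apart. The 6 markers of dividing cells were all lower (median log2 fold change -1.39), their sum being 53.8 to 66.1 CPM without DAPT and 21.9 to 24.3 CPM with it. Of 6 radial glia and neural stem cell markers 2 were lower, Fabp7 (-1.89, SE 0.04) and Nes (-0.63, SE 0.02). The sum of all 6 was 4007 to 4710 CPM without DAPT and 2220 to 2525 CPM with it. Most of that sum and of its fall was Fabp7, at 2587 to 3050 CPM without DAPT and 692.1 to 787.7 CPM with it. The other 4 markers had log2 fold changes above 0 and were not called, and the median of the 6 was 0.03. The part of these cell types in the rise of Id4, Bmp4 and Bmp6 was not tested.

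Other markers were called as follows with DAPT on average, where 5.54% of all genes were called higher and 7.70% lower. Of 8 neuron markers 3 were higher (Snap25, Syt1 and Stmn2, each at 0.34 to 0.35), their sum being 1139 to 1220 CPM in vehicle, 1239 to 1394 with sErbB4, 1316 to 1375 with DAPT and 1441 to 1510 with DAPT+sErbB4. The call of Syt1 was lost without vehicle replicate 1, sErbB4 replicate 1 or sErbB4 replicate 2 (0.30 to 0.32). Of 4 oligodendrocyte precursor markers 2 were lower (Pdgfra and Cspg4), of 5 mature oligodendrocyte markers 1 was lower (Mag, the sum of all 5 being 256.2 to 313.3 CPM in vehicle, 212.2 to 266.4 with sErbB4, 284.0 to 288.3 with DAPT and 265.2 to 282.8 with DAPT+sErbB4), of 6 microglia markers 1 was lower (Cx3cr1), and of 8 markers of pericytes, smooth muscle and fibroblasts 2 were higher (Dcn and Lum) and 4 lower (Rgs5, Tagln, Col1a1 and Col3a1). Of 5 choroid plexus and ependyma markers Folr1 was called higher (0.39), a call lost in 8 of the 12 fits that left out 1 library (all but those without vehicle replicate 2, sErbB4 replicate 2, DAPT replicate 3 or DAPT+sErbB4 replicate 1), with adjusted p up to 0.0928. The 5 endothelial markers summed to 3.38 to 5.17 CPM over all libraries, with Tek and Flt1 at means of 0.0624 and 0.205 CPM, and none of the 3 tested was called.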

How the data were processed

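RNA of 12 culture libraries was selected for poly-A, and paired-end reads were sequenced. Per the study's methods and the submitters' notes, the authors used Trimmomatic for trimming, HISAT2 for alignment (mm10), StringTie for assembly and IsoformSwitchAnalyzeR for gene values, with FastQC, MultiQC and limma among the listed tools and versions not given in the sources used here. What the authors deposited are values for each gene in each library, taken here as estimated counts, which are not whole numbers and carry no normalization between libraries. Here they were rounded, loci without a gene name were dropped, low genes were removed with filterByExpr and sizes were scaled by TMM. edgeR 4.0.16 (R 4.3.3) then fitted 1 quasi-likelihood model with a mean per group, which also gave the 95% intervals. Alternatives used limma 3.58.1 and DESeq2 1.42.0. Only the edgeR test of the average DAPT effect was first tried on simulated data. The genes and lists were chosen with earlier results of these data known. Named are all 10 genes, the called members of each list in the average DAPT effect (at most 6, by size of change), and the 3 genes most like each Id gene. The numbers of the replicates are not stated to pair libraries. Over the 2000 genes of highest mean, deviations of 18 same-number pairs gave r of -0.59 to 0.529 (median 0.0236), with 8 above 0.1, and the reported fit has no block.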

Additional observations from a re-analysis of the deposited data

How the results depend on the processing

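Each comparison was recomputed under up to 22 alternatives: RLE scaling, library totals, no filter, DESeq2, limma on log2(CPM + 2) with cyclic loess, only the 6 libraries compared, unnamed loci kept, Rn45s left out, the replicate block, each library left out, and, chosen after seeing the data, sErbB4 replicate 1 and vehicle replicate 3 left out together. Of 153 recomputed counts of called or separated genes among the 10, 152 stayed within 1.5 times the value reported. The exception was DAPT against vehicle on library totals, with 7 of the 10 genes called in place of 3. Counts over all genes moved more. Those of sErbB4 against vehicle were 0 to 18 (18 by DESeq2) in place of 5, those of DAPT+sErbB4 against DAPT up to 8 in place of 0, and those of the interaction up to 4 in place of 1. DAPT against vehicle gave 3210 on library totals in place of 1813, and the average 1368 by limma in place of 2072. The recomputed log2 fold changes were those of all 10 genes on average and in both DAPT comparisons, and of Id3, Id4, Bmp4, Bmp6 and Bmp7 in sErbB4 against vehicle and DAPT+sErbB4 against DAPT. Single values of sErbB4 against DAPT and of the interaction were left out of this tally. Of these 870 values, 837 kept their direction and side of the thresholds, 15 lost a call, 11 gained 1 and 7 changed sign, all of the last in genes that were not called. On library totals Bmpr1b changed sign on average (0.026) and against vehicle (0.13), as did Bmp7 against vehicle (0.079). For DAPT+sErbB4 against sErbB4, leaving out single libraries gave -0.032 to 0.012 for Bmpr1b and -0.12 to 0.027 for Smad7, and leaving out both libraries that stand apart gave 0.0044 for Bmpr1b. On library totals the libraries of Id2 overlapped between cultures with and without DAPT and those of Id3 did not, so 5 genes were separated on either scale. With the replicate block the same genes of the 10 were called as without it, 4 on average, 3 against vehicle and 4 with sErbB4 present, and 2020 genes in place of 2072 were called on average over all genes. For 4 of 12 libraries the closest library of another group carried the same number. Causes of these shifts were not tested. Smad6 and Smad7 had the lowest values of the 10 genes, at 52.0 to 104.9 estimated counts per library.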

Other observations

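The TGF-β and activin branch, which signals through Smad2 and Smad3 and not through the Smads of the BMP branch, had 13 listed genes, all tested. On average DAPT raised 2 of them, the ligand Tgfb3 (log2 fold change 0.61, SE 0.06, adjusted p = 9.69e-06 by edgeR's quasi-likelihood test) and the coreceptor Tgfbr3 (0.37, SE 0.10, adjusted p = 0.0132), and lowered 2, the signal transducer Smad3 (-0.37, SE 0.04, adjusted p = 2.88e-05) and the activin subunit gene Inhbb (-0.35, SE 0.05, adjusted p = 0.000149). The median of the 13 was 0.17. Against vehicle the counts were also 2 higher and 2 lower, and with sErbB4 present 1 higher and 2 lower. Of all genes 5.54% were called higher and 7.70% lower on average, 4.66% and 6.92% against vehicle, and 4.55% and 7.15% with sErbB4 present. The call of Tgfbr3 was lost without vehicle replicate 1 or DAPT replicate 3 (both 0.32), that of Inhbb without sErbB4 replicate 2 or DAPT replicate 3 (both -0.32), and those of Smad3 and Inhbb on library totals (-0.30 and -0.28).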
